A study of Mus musculus with 2 samples.

Results

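The protein tyrosine phosphatase genes of the mouse were taken as the protein-coding genes whose symbols begin with Ptpr or Ptpn in the GENCODE annotation of mm10, 38 of 21938 protein-coding genes. They comprised 20 receptor genes, 17 nonreceptor genes and Ptprcap, which encodes a protein bound to CD45 and is no phosphatase itself. Ptpn5 and Ptpn7 were counted as nonreceptor by their symbols, although their catalytic domains belong to the same subtype as that of the receptor gene Ptprr. Symbols alone decided which genes were members, so membership does not show phosphatase activity.

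Protein tyrosine phosphatases remove phosphate from tyrosine residues and so set the level of the signals that kinases start. Most receptor forms (gene names beginning Ptpr) cross the plasma membrane and carry the catalytic domain inside the cell. Nonreceptor forms (Ptpn) mostly sit in the cytoplasm and reach their targets through SH2, FERM, PDZ or other domains. In blood cells the class is known for Ptprc (CD45), which switches on Src family kinases, for Ptpn6 (SHP-1), which inhibitory receptors recruit to end signalling, and for Ptpn11 (SHP-2), which carries signals from cytokine receptors to Ras.

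Open chromatin was mapped by ATAC-seq, in which a transposase inserts adapters into accessible DNA, in primary hematopoietic stem cells. The donors were adult males of strain C57BL/6J, 5 to 6 weeks of age. The series has 1 group with 2 biological replicates of 50000 cells each and no treatment or genotype contrast. The labels give both replicates the same donor identifier but separate biosamples, so separate animals are not stated, and differences between replicates may be technical. For each replicate the IDR-thresholded peak list, IDR being the irreproducible discovery rate of peak ranks, held 25141 distinct intervals in replicate 1 and 24495 in replicate 2. The longer pseudoreplicated lists held 62918 and 64843 intervals. Read depth is unknown from peak lists, and a gene without a peak is one where none was called at that threshold, which does not show closed chromatin. In a pool of cells, a site open in fewer cells and a site less open in each cell cannot be told apart. With 1 group there is no test between conditions, and the counts below are descriptions set beside the same counts over all protein-coding genes. Of 9 stem cell marker genes, 4 (Kit, Cd34, Hlf and Meis1) had a promoter peak in both thresholded lists and 8 in both pseudoreplicated lists, the exception being Slamf1. Over all protein-coding genes the shares were 42.5% and 59.5%. None of the 3 T cell, 3 B cell and 3 erythroid markers had one in both lists of either kind. Of 4 granulocyte and monocyte markers, 0 had one in the thresholded lists and 2 (Mpo and Itgam) in the pseudoreplicated lists. Of 3 endothelial markers, 1 (Cdh5) had one in the thresholded lists and all 3 in the pseudoreplicated lists, and their part in the results was not tested. Shared distal peaks, defined further on, gave another picture in the thresholded lists. All 3 T cell markers had one, as did 3 of 4 granulocyte and monocyte, 7 of 9 stem cell and 2 of 3 endothelial markers. No B cell or erythroid marker had one, and the share of all protein-coding genes was 45.6%.

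A promoter was taken as 1 kb either side of any annotated transcription start site (TSS), and a promoter peak as any interval that overlapped it. In the thresholded lists 14 of the 38 members (36.8%) had a promoter peak in both replicates, against 42.5% of all protein-coding genes. Receptor genes contributed 5 of 20 (25%), namely Ptpra, Ptprc, Ptpre, Ptprk and Ptprs. Nonreceptor genes contributed 9 of 17 (52.9%), namely Ptpn1, Ptpn4, Ptpn6, Ptpn7, Ptpn12, Ptpn13, Ptpn18, Ptpn21 and Ptpn23. The receptor share was thus 27.9 percentage points below the nonreceptor share (difference -27.9), and the share of all genes lay between them. The forms also differed in the tissues where they are best known, as given further on. No promoter peak of a member also overlapped the promoter of another protein-coding gene. The difference kept its sign in each replicate alone, at -29.7 points with replicate 1 alone and -45.6 points with replicate 2 alone. A peak in replicate 2 only was found at 3 nonreceptor genes and no receptor gene.

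At the lower threshold most of the class had a promoter peak. In the pseudoreplicated lists 32 of the 38 members (84.2%) had one in both replicates, against 59.5% of all protein-coding genes. These were 15 of 20 receptor genes (75.0%), 16 of 17 nonreceptor genes (94.1%) and Ptprcap. Counts at any TSS favour genes with many TSSs. At the most 5′ TSS alone, 25 of 38 members had a pseudoreplicated peak in both replicates, against 11840 of 21938 protein-coding genes. They were 10 of 20 receptor genes and 15 of 17 nonreceptor genes. Ptprg, Ptprh, Ptprq, Ptprt and Ptpn20 had none at any TSS in either replicate. Ptprb, an endothelial receptor phosphatase, had one in replicate 2 only, with a signal value of 3.56. In contrast, among the 50% strongest peaks of each thresholded list, 5 members (13.2%) kept a promoter peak in both replicates, against 26.2% of all protein-coding genes: Ptprc of the receptor genes (1 of 20, 5.00%) and Ptpn1, Ptpn4, Ptpn6 and Ptpn12 of the nonreceptor genes (4 of 17, 23.5%). In the series-level thresholded list, made from both libraries, 25 members (65.8%) had a promoter peak (10 receptor genes, 14 nonreceptor genes and Ptprcap), against 53.4% of all protein-coding genes. The share of members thus lay above that of all genes in the pseudoreplicated and series-level lists, and below it for calls in both thresholded lists and among their strongest peaks. In the thresholded list of replicate 1 alone it was 47.4%, against 47.2% of all genes, and in that of replicate 2 alone 44.7%, against 45.5%.

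**Figure D1:**
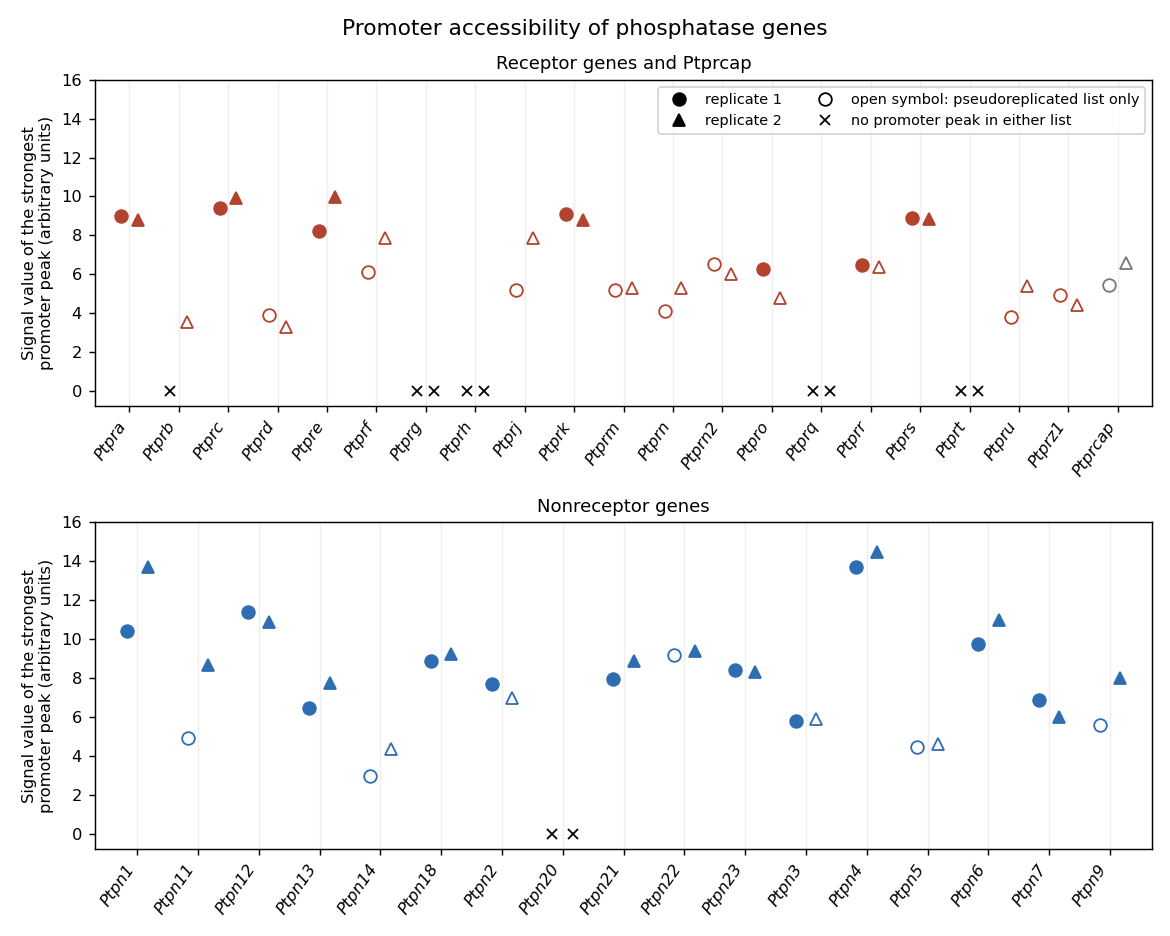
Signal value (arbitrary units, given by the authors' peak caller) of the strongest promoter peak of each gene in each replicate, receptor genes and Ptprcap above and nonreceptor genes below; filled symbols are peaks of the thresholded lists, open symbols peaks found only in the pseudoreplicated lists, and crosses at 0 mark genes with no promoter peak in either list. Ptpn4 has the highest values, 13.7 in replicate 1 and 14.5 in replicate 2, and most receptor genes have open symbols or crosses.

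Ptprc (ENSMUSG00000026395 at chr1:138062861-138175708 on the minus strand) encodes CD45, the receptor phosphatase of nucleated blood cells. Its promoter peak had a signal value of 9.39 in replicate 1 and 9.91 in replicate 2, above 61.0% and 54.1% of the intervals of those lists. These are values of the authors' peak caller and were compared within a list only. The summit lay 0.399 kb downstream of the most 5′ TSS in replicate 1, next to another annotated TSS 402 bp downstream of it. The promoter peak of Ptprc thus stood in the middle part of each list.

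Ptpn6 (ENSMUSG00000004266 at chr6:124720707-124738714 on the minus strand) encodes SHP-1, which in human is transcribed from a pair of promoters, the upstream one used in epithelial cells and the downstream one in hematopoietic cells. The annotation lists 11 TSSs for mouse Ptpn6. The thresholded peak had a signal value of 9.77 in replicate 1 and 11.0 in replicate 2, above 65.7% and 67.4% of the intervals. It lay at an internal TSS 5560 bp downstream of the most 5′ TSS, in both replicates. At the most 5′ TSS itself a peak was called in the pseudoreplicated lists only, with 3.21 in replicate 1 and 3.65 in replicate 2, above 5.87% and 6.86% of their intervals. Within a promoter of 1 kb around the most 5′ TSS alone, Ptpn6 would thus have had no thresholded peak.

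Ptpn11 (ENSMUSG00000043733 at chr5:121130533-121191397 on the minus strand) encodes SHP-2, which acts downstream of Kit and cytokine receptors. A thresholded promoter peak was called in replicate 2 only, with a signal value of 8.66, above 34.2% of the intervals of that list. In the pseudoreplicated lists the peak was present in both replicates, with 4.91 in replicate 1 and 8.66 in replicate 2, above 35.7% and 73.5% of the intervals, and its summits lay 103 and 94 bp upstream of the most 5′ TSS. The thresholded call at this promoter therefore differed between the replicates while the lower threshold placed a peak there in both.

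The windows reaching 100 bp to either side of a summit are shown for these 3 genes and for Ptprj, because they hold the promoter peaks just described and the strongest distal peaks described further on. Bases are those of the RefSeq GRCm38.p6 genome (mm10), read 5′ to 3′ on the minus strand, which is the strand of each gene. Capitals mark matches on either strand to short letters that factors of blood cells and promoters are known to bind. Members of the ETS family were searched as GGAAG on both strands. The letters taken for RUNX factors were TGTGGT, as their core site is usually written. For GATA factors the letters taken were AGATAA. The letters TGANTCA stood for AP-1, the dimer of Fos and Jun proteins. An E-box, bound by helix-loop-helix proteins, was searched as CAGCTG alone. The GC box of Sp and Klf proteins was searched as GGGCGG, and the last motif was the CCAAT box of promoters. None of these motifs contains another.
Ptprc promoter peak, chr1:138175209-138175409: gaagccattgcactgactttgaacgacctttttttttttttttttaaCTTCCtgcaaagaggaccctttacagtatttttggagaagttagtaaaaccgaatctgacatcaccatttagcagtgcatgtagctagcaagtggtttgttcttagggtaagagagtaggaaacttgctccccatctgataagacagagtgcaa
Ptprc intron peak, chr1:138136522-138136722: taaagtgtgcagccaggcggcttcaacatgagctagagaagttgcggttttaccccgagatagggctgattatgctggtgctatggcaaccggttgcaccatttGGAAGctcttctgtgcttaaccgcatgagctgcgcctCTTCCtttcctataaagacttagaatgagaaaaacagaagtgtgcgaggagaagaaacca
Ptprc second intron peak, chr1:138145698-138145898: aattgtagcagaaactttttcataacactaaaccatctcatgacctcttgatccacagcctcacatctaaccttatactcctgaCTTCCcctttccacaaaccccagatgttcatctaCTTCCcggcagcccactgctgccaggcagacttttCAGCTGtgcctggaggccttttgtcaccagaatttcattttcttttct
Ptprc upstream peak, chr1:138192032-138192232: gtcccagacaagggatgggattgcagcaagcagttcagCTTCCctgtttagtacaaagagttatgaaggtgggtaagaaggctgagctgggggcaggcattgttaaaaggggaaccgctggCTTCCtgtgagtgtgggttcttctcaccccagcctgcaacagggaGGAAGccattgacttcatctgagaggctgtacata
Ptpn6 promoter peak, chr6:124733034-124733234: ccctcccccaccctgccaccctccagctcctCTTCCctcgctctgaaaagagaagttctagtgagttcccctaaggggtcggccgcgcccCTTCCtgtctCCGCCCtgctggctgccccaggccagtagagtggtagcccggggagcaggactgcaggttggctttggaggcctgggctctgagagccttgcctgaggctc
Ptpn6 downstream peak, inside Lpcat3, chr6:124694282-124694482: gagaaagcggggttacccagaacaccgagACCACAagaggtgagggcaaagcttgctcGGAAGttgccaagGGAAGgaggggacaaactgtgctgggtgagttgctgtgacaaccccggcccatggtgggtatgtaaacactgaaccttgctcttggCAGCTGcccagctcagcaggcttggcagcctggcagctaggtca
Ptpn11 promoter peak of replicate 2, chr5:121191391-121191591: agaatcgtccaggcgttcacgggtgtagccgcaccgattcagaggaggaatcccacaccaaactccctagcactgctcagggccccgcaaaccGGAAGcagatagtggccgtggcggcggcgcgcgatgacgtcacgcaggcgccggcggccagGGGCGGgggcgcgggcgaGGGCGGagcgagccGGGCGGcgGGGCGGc
Ptprj upstream peak, chr2:90612275-90612475: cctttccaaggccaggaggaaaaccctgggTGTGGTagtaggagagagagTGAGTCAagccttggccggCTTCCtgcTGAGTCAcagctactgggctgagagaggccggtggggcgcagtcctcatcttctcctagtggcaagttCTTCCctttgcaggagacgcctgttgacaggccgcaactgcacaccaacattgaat
The Ptpn11 window held 4 GC box matches and 1 ETS match. The Ptpn6 promoter window held 2 ETS matches and 1 GC box match, and the Ptprc promoter window held 1 ETS match and no GC box match. The window upstream of Ptprj, a receptor phosphatase (CD148) of blood and epithelial cells, held 2 AP-1, 2 ETS and 1 RUNX match. A match is a description of the letters and does not show binding.

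Among the other nonreceptor genes, Ptpn4, a FERM and PDZ domain phosphatase, had the strongest promoter peak of all members, with 13.7 in replicate 1 and 14.5 in replicate 2, above 93.8% and 92.9% of the intervals. Ptpn1 (PTP1B), which acts on the insulin receptor and Jak kinases, had 10.4 in replicate 1 and 13.7 in replicate 2. Ptpn12 (PTP-PEST), a cytoskeletal phosphatase, had 11.4 in replicate 1 and 10.9 in replicate 2. Together with Ptpn6, those 3 genes were the nonreceptor genes in the stronger part of both lists. Ptpn23, a phosphatase-like protein of endosomal sorting, had 8.40 and 8.31 in replicates 1 and 2, and Ptpn13, a large scaffold phosphatase with several PDZ domains, had 6.48 and 7.74. Ptpn7, a hematopoietic phosphatase of MAP kinases, had 6.89 in replicate 1 and 5.98 in replicate 2, above 21.2% and 3.24% of the intervals.

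Ptpn18, a PEST-type phosphatase like Ptpn12, had a peak at its most 5′ TSS with 8.87 in replicate 1 and 9.22 in replicate 2. It had another at an internal TSS, with its summit 13.4 kb downstream and signal values of 8.87 in replicate 1 and 7.92 in replicate 2. Ptpn21, a FERM domain phosphatase, had 7.97 in replicate 1 and 8.86 in replicate 2, also at an internal TSS. Across the class, 11 of 38 members (28.9%) had a thresholded peak at the most 5′ TSS in both replicates, against 38.3% of all protein-coding genes. They were 4 receptor genes and 7 nonreceptor genes, and Ptpn6, Ptpn21 and Ptprs were the 3 called at internal TSSs alone.

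Of the receptor genes other than Ptprc, Ptpra and Ptpre form 1 subtype, small receptors that act on Src family kinases, and both had promoter peaks. Ptpra had 8.98 in replicate 1 and 8.78 in replicate 2, and Ptpre had 8.21 in replicate 1 and 9.98 in replicate 2. Ptpre is transcribed into a receptor and a cytosolic form from separate promoters. Its thresholded peak lay at its 5′ TSSs, and weaker peaks stood near TSSs further into the gene in the pseudoreplicated lists, including 4.56 in replicate 1 and 5.18 in replicate 2 near a TSS about 114 kb downstream. Ptprk, an adhesion-type receptor that binds its own kind on neighbouring cells, had 9.09 in replicate 1 and 8.80 in replicate 2. Ptprs, a receptor for proteoglycans, had 8.90 in replicate 1 and 8.85 in replicate 2, with the summit 14.0 kb downstream of its most 5′ TSS. These 4 genes had signal values within a narrow range and close to Ptprc.

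A further 7 of the 38 members had a thresholded promoter peak in 1 replicate only, a higher share than the 7.71% of all protein-coding genes. Members called in replicate 1 only made up 10.5% of the class, against 4.72% of all genes. Those called in replicate 2 only made up 7.89%, against 2.99%. In replicate 1 these were Ptpro, a receptor of kidney podocytes, with 6.25, and Ptprr, a phosphatase of MAP kinases in neurons, with 6.49. The Ptprr interval overlapped the promoter, but its summit lay 1045 bp from the nearest TSS. In the pseudoreplicated lists that interval was also counted as a distal peak. Peaks at the most 5′ TSS of Ptprr were in the pseudoreplicated lists only, with 6.02 in replicate 1 and 5.99 in replicate 2. Replicate 1 also held Ptpn2, which acts on Jak and Stat proteins, with 7.71, and Ptpn3, a FERM and PDZ relative of Ptpn4, with 5.80. In replicate 2 these were Ptpn9, a phosphatase of secretory vesicles, with 8.0, and Ptpn11 and Ptpn22 with 8.66 and 9.39. For Ptpn22, a lymphoid phosphatase that acts on Src family kinases, the pseudoreplicated list of replicate 1 held a peak of 9.16 at the same TSS, above 83.1% of that list. All 7 had a promoter peak in both pseudoreplicated lists. The members with no thresholded promoter peak in either replicate were 13 receptor genes (65.0%), Ptpn5, Ptpn14, Ptpn20 and Ptprcap. Of those 13 receptor genes, 8 (Ptprd, Ptprf, Ptprj, Ptprm, Ptprn, Ptprn2, Ptpru and Ptprz1) had pseudoreplicated promoter peaks in both replicates. Their strongest peaks ran from 3.81 in Ptpru to 6.55 in Ptprn2 in replicate 1, and from 3.29 in Ptprd to 7.88 in Ptprf in replicate 2. Ptprcap had 5.43 in replicate 1 and 6.58 in replicate 2 as its strongest pseudoreplicated promoter peaks, at sites that did not overlap. The replicate 1 peak overlapped a replicate 2 peak of 6.10.

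Genes were also grouped by where their products are best known. Of 7 genes best known from blood cells, 4 (Ptprc, Ptpre, Ptpn6 and Ptpn7) had a thresholded promoter peak in both replicates, and all 7 had one in both pseudoreplicated lists. Of 8 genes best known from nervous or sensory tissue (Ptprd, Ptprn, Ptprn2, Ptprq, Ptprr, Ptprt, Ptprz1 and Ptpn5), 0 had one in both thresholded lists and 6 had one in both pseudoreplicated lists. All of these but Ptpn5 are receptor genes. The grouping by tissue therefore overlaps with that into receptor and nonreceptor genes, and the groupings were not separated. The shares of all protein-coding genes were 42.5% and 59.5%, and lists this short give only a description. By subtype, none of the 5 receptors with long fibronectin repeats (Ptprb, Ptprh, Ptprj, Ptpro and Ptprq) had a thresholded promoter peak in both replicates. A shared distal peak was present at 4 of those 5, near the 73.7% of all members and against 45.6% of all protein-coding genes.

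Promoter CpG content was read from 1 kb either side of the most 5′ TSS as the observed to expected CpG ratio. Its median was 0.625 in members and 0.474 in all protein-coding genes. It was 0.625 in receptor genes and 0.686 in nonreceptor genes. In the tertile of all genes with the highest ratio (above 0.604), 9 of 22 members (40.9%) had a thresholded promoter peak in both replicates, against 66.6% of all genes there. Receptor genes made up 3 of 12 (25%) and nonreceptor genes 6 of 10 (60.0%). In the pseudoreplicated lists, 20 of the 22 members (90.9%) had one, against 87.7% of all genes there. High-CpG members thus lay below all genes of like CpG content only at the higher threshold, and receptor genes accounted for 9 of the 13 without the call. In the tertile with the lowest ratio (below 0.278), 3 of 7 members had a thresholded peak in both replicates (42.9%), against 10.9% of all genes there. These were Ptprc with a ratio of 0.214, Ptpn6 with 0.249 and Ptpn7 with 0.168, all genes of the blood list. The other 4 members of this tertile were Ptprh, Ptprq and the blood-list genes Ptpn22, with 0.240, and Ptprcap, with 0.171. The ratio of Ptpn6 was read at its most 5′ TSS, which had no thresholded peak, and not at the internal TSS that had one.

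**Figure D2:**
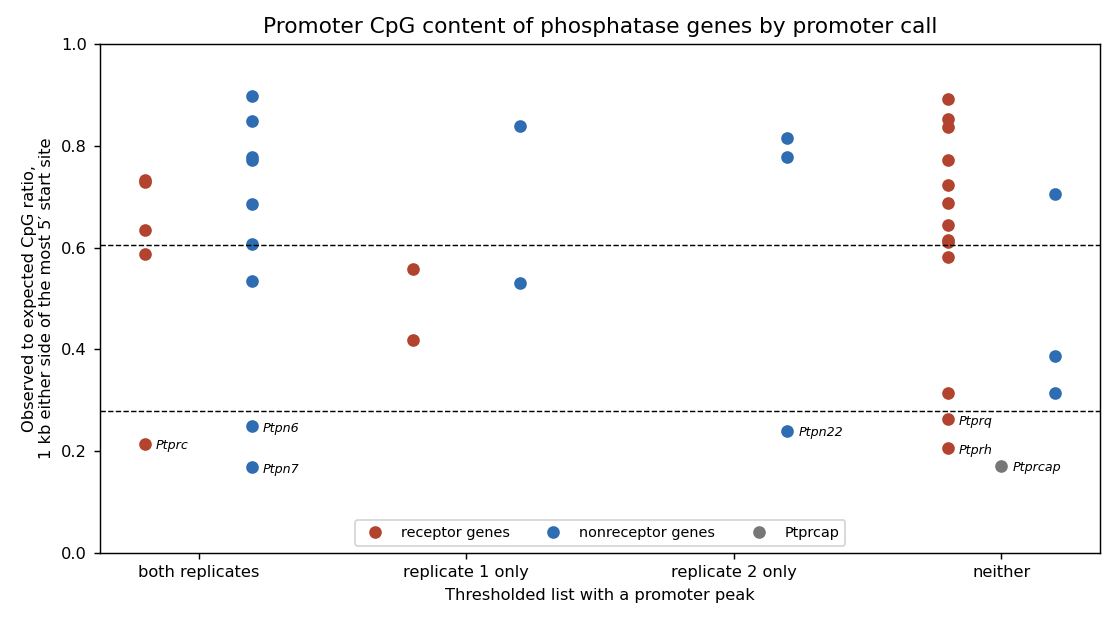
Observed to expected CpG ratio around the most 5′ start site of each member (y axis), by the thresholded lists that held a promoter peak (x axis); red points are receptor genes, blue points nonreceptor genes, the grey point is Ptprcap, and dashed lines at 0.278 and 0.604 are the tertile bounds of all protein-coding genes. The column of genes with no thresholded peak is mostly receptor genes with high ratios, while Ptprc, Ptpn6 and Ptpn7 stand at low ratios in the column of both replicates.

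Distal peaks were those with the summit over 1 kb from every TSS of every protein-coding gene, and were assigned to a member within 50 kb of any of its TSSs or inside the gene. A peak was shared when the intervals of the replicates overlapped by at least 1 bp. In the thresholded lists 28 of the 38 members (73.7%) had at least 1 shared distal peak, against 45.6% of all protein-coding genes. They were 15 of 20 receptor genes (75.0%), 12 of 17 nonreceptor genes (70.6%) and Ptprcap. In the pseudoreplicated lists 35 of 38 (92.1%) had at least 1, against 75.5% of all protein-coding genes. Phosphatase genes are long, and the windows searched were wider, with a median of 168 kb in members and 104 kb in all genes. Pooled over genes, members held 0.579 thresholded distal peaks per 100 kb searched and all genes 0.580. The median gene had 0.651 per 100 kb among members and 0 among all genes, since most genes of the annotation had none. Within a fixed 50 kb of the most 5′ TSS, 18 of 38 members (47.4%) had a shared distal peak, against 40.0% of all protein-coding genes. The higher share of members with a distal peak thus went together with wider windows, and the gap was smaller in windows of equal width.

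The thresholded lists assigned 70 distinct distal peaks to members, and none to more than 1 of them. When TSSs of every gene type were counted, 66 stayed distal. The exceptions were peaks of Ptprc, Ptprh, Ptprn and Ptpn18 within 1 kb of the TSS of a noncoding gene. Receptor genes held 41 of the 70 in a median window of 252 kb, and nonreceptor genes 28 in a median window of 145 kb. Pooled over genes, receptor genes had 0.438 per 100 kb searched and nonreceptor genes 1.06. The median gene had 0.631 per 100 kb among receptor genes and 0.651 among nonreceptor genes. The pooled values give more weight to long genes such as Ptprd, with 3 peaks, and Ptprt, with none. Within 50 kb of the most 5′ TSS, 10 of 20 receptor genes and 7 of 17 nonreceptor genes (41.2%) had a shared distal peak. Of the receptor peaks 32 of 41 lay inside the gene, as did 9 of 28 nonreceptor peaks. The member had the nearest TSS for 37 of 41 receptor peaks and 16 of 28 nonreceptor peaks. Assignment by distance does not show which gene a peak acts on, and for 12 nonreceptor peaks another gene had the closer TSS.

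Ptprc had 3 shared distal peaks, each with a higher signal value than its promoter peak in both replicates. An intron peak 39.1 kb downstream of the most 5′ TSS had 12.3 in replicate 1 and 15.3 in replicate 2, above 87.6% and 95.6% of the intervals. Another intron peak, 29.9 kb downstream, had 12.3 in replicate 1 and 13.6 in replicate 2. A peak 16.4 kb upstream had 10.4 in replicate 1 and 13.7 in replicate 2. Among protein-coding genes Ptprc had the nearest TSS for all 3. The upstream peak, however, lay 5 bp from a TSS of the lincRNA gene Gm28556, so that 2 of the 3 were distal when TSSs of every gene type were counted. The 3 windows, printed above, held 2, 2 and 3 ETS matches.

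Ptpn6 also had 3. The strongest, with 10.7 in replicate 1 and 14.7 in replicate 2, lay downstream inside Lpcat3, a phospholipid acyltransferase gene whose TSS was nearer. Its window held 1 RUNX, 2 ETS and 1 E-box match. An intron peak of Ptpn6, 8.73 kb downstream of the most 5′ TSS, had 7.05 in replicate 1 and 6.55 in replicate 2. A peak 20.8 kb upstream, nearer to the TSS of Atn1, had 7.96 in replicate 1 and 6.74 in replicate 2. Unlike at Ptprc, the distal peaks that lay nearest to Ptpn6 were weaker than its promoter peak. Ptpn11 had no shared distal peak in the thresholded lists. In the pseudoreplicated lists it had 2 downstream of the gene, with 5.36 and 4.16 in replicate 1 and 7.11 and 3.53 in replicate 2.

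**Figure D3:**
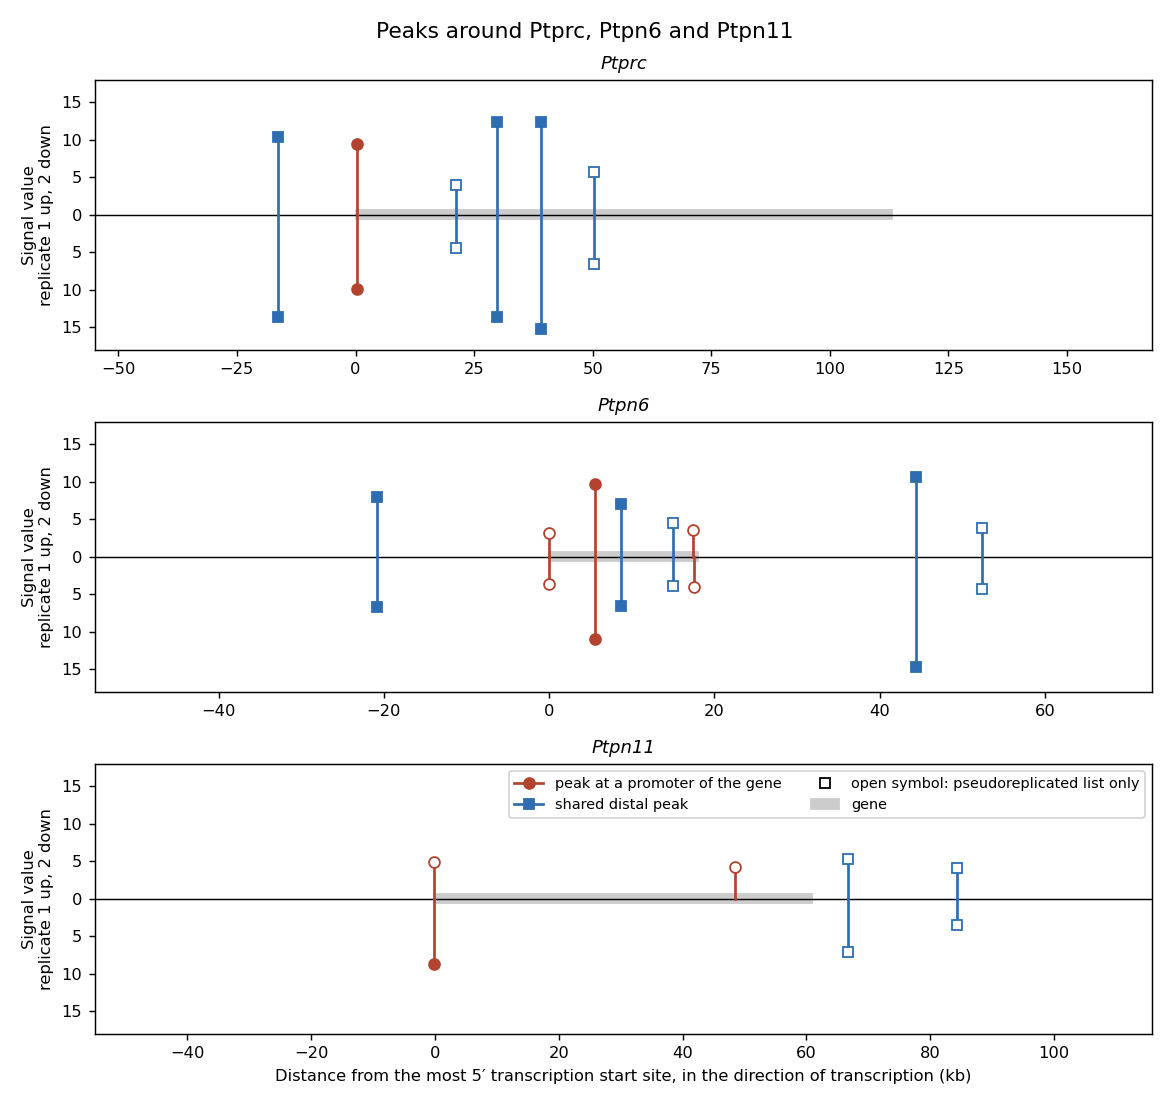
Peaks around Ptprc, Ptpn6 and Ptpn11 by distance from the most 5′ start site in the direction of transcription (x axis, kb); stems rise to the signal value of replicate 1 and fall to that of replicate 2 (arbitrary units), red for promoter peaks and blue for shared distal peaks, with open symbols for peaks of the pseudoreplicated lists only and the gene in grey. The 3 thresholded distal peaks of Ptprc exceed its promoter peak, the Ptpn6 promoter peak stands 5.58 kb into the gene, and Ptpn11 has a filled symbol in replicate 2 only.

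Ptprj had 5 shared distal peaks and no thresholded promoter peak. Its peak 31.7 kb upstream had 14.3 in replicate 1 and 16.5 in replicate 2, above 95.4% and 98.0% of the intervals and the strongest distal peak of any member in both replicates. At its most 5′ TSS the pseudoreplicated lists held peaks of 3.39 in replicate 1 and 3.89 in replicate 2. Near an internal TSS, with summits 151 kb downstream, they held stronger ones of 5.18 in replicate 1 and 7.86 in replicate 2, above 41.1% and 66.2% of the intervals. For another of its peaks, downstream of the gene, the 31 bases at the summit occurred 3 times in the genome, and the summits of the other 69 distal peaks were unique. Ptpn12 had 6, the most of any member, and its strongest, in an intron 25.5 kb downstream of the TSS, had 12.2 in replicate 1 and 14.6 in replicate 2. Ptprm, an adhesion-type receptor related to Ptprk, had 5 intron peaks and no thresholded promoter peak. Its strongest in replicate 1, 644 kb downstream, had 11.1 in replicate 1 and 8.71 in replicate 2.

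Ptpn1, Ptpn18, Ptprk and Ptpro had 4 each. The strongest of Ptpn1 lay in an intron, with 9.60 in replicate 1 and 10.3 in replicate 2. The strongest of Ptpn18 lay downstream, nearer to the TSS of Prss39, with 9.88 in replicate 1 and 8.78 in replicate 2. One Ptprk intron peak, 441 kb downstream, had 13.2 in replicate 1 and 13.5 in replicate 2. Ptprd, Ptpre and Ptprh had 3 each. An intron peak of Ptprh, an epithelial receptor phosphatase with no promoter peak in the lists of either replicate, had 9.45 in replicate 1 and 15.9 in replicate 2. Ptpn3, Ptpn5, Ptpn14, Ptprg, Ptprn, Ptprr and Ptprs had 2 each. Ptpn5, a neuronal phosphatase with no thresholded promoter peak, had a pair of upstream peaks, with 10.9 and 11.6 in replicate 1 and 12.7 and 12.6 in replicate 2. Ptpn4, Ptpn9, Ptpn13, Ptpn21, Ptpn23, Ptpra, Ptprb, Ptprcap and Ptprn2 had 1 each. The remaining 10 (Ptpn2, Ptpn7, Ptpn11, Ptpn20, Ptpn22, Ptprf, Ptprq, Ptprt, Ptpru and Ptprz1) had none in the thresholded lists. That does not always mean a low signal value. Ptprf had a shared peak 35.3 kb upstream in the pseudoreplicated lists, with 11.7 in replicate 1 and 11.5 in replicate 2. These values were above 93.6% and 90.0% of the intervals of those lists. Ptprj, Ptprh and Ptpn5 thus carried shared distal peaks in the stronger part of both lists with no thresholded promoter peak. The same held for Ptprd, Ptprg, Ptprm and Ptprn2.

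Letters of blood transcription factors were counted in windows of 100 bp either side of the replicate 1 summits of shared peaks, on both strands. The ETS letters stood in 58 of the 70 distal windows of members (82.9%), against 74.8% of all 10824 shared distal windows. The RUNX letters stood in 28 of 70 (40.0%), against 32.9% of all. Both stood in 25 of 70 (35.7%), against 24.8% of all, and in 18 of 41 receptor windows (43.9%) and 7 of 28 nonreceptor windows (25%). GATA letters stood in 11.4% of member windows and 8.82% of all, AP-1 letters in 14.3% and 10.6%, and E-box letters in 22.9% and 18.1%. GC box letters stood in 5.71% of member distal windows and 11.2% of all. At promoters, GC box letters stood in 11 of the 15 shared member windows (73.3%), against 58.7% of all, and ETS letters in 9 of 15 (60.0%), against 67.6% of all. RUNX, GATA and AP-1 letters stood in none of those 15, against 9.99%, 2.75% and 3.43% of all shared promoter windows. The promoter and distal windows of members thus differed in their letters much as all shared peaks did.

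The partners of these phosphatases were read from lists of genes. Of 9 Src family kinases and Csk, 3 (Fyn, Lyn and Blk) had a thresholded promoter peak in both replicates, and all 9 had one in both pseudoreplicated lists. Of 12 adaptors and kinases that act with Ptpn6 and Ptpn11, 8 did (Gab2, Gab3, Grb2, Shc1, Jak1, Jak3, Tyk2 and Kit), and all 12 in the pseudoreplicated lists. Of 13 inhibitory receptors that recruit them, 6 did (Cd72, Cd33, Btla, Ceacam1, Fcgr2b and Lair1), and 10 in the pseudoreplicated lists, the exceptions being Pirb, Pdcd1 and Mpig6b. The adaptor and kinase list had the highest thresholded share of the 3, 66.7%, beside the 42.5% of all protein-coding genes given above. The Src family list had 33.3% and the inhibitory receptor list 46.2%. In the pseudoreplicated lists the share of all protein-coding genes was 59.5%.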

How the data were processed

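ATAC-seq was done on 2 biological replicates of mouse hematopoietic stem cells. The authors deposited peak lists in mm10 with a signal value per peak, as the notes beside the files state. Aligner, peak caller, versions and read-end adjustment: not given in the sources used here. Read depth is unknown, and no interval or count test was possible. Sequencing instruments are named for replicate 1 but not for replicate 2, and instrument and replicate cannot be told apart.

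Lines with the same interval were merged, keeping the strongest summit (Python 3.11.15, NumPy 2.4.6, pysam 0.24.0, matplotlib 3.10.9). Genes and TSSs of all transcripts came from GENCODE M21, and sequences from RefSeq GRCm38.p6. Percentiles are the percent of intervals of a list with a lower signal value. Promoter calls, peak sharing and the assignment of distal peaks to genes were tested on simulated peaks. Simulated promoter peaks had summits well inside the promoter, so calls at its edge were not tested. Simulated distal peaks were placed only where the distal rule already held, so recovering them did not test that rule. This gene class, its lists and the motifs were chosen with earlier results of these data known, and membership in the class follows symbols alone. Every member is named. Promoter signal values are given for members called in both replicates. Distal values are given for Ptprc, Ptpn6 and the 5 members with most peaks (ties taken in alphabetical order: Ptpn12, Ptprj, Ptprm, Ptpn1 and Ptpn18). They are also given for Ptprk, Ptpn5, Ptprh and Ptprf, chosen after their values were seen.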

Additional observations from a re-analysis of the deposited data

How the results depend on the processing

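The number of members with a promoter peak in both replicates, 14, was 17 without replicate 1, 18 without replicate 2, 32 with the pseudoreplicated lists, 25 with either series-level list and 5 with the 50% strongest peaks. Under the same settings, in that order, receptor genes numbered 5, 7, 15, 10 and 1, and nonreceptor genes 12, 11, 16, 14 and 4. The difference between the shares kept its sign under every alternative run and was -45.6 points without replicate 1 and -29.7 without replicate 2. Under the other alternatives it ran from -32.4 with the series-level lists to -18.5 with the 50% strongest peaks and -17.9 with promoters of 2 kb either side. Among genes with a shared distal peak, 17 of 28 were left with the 50% strongest peaks and 18 within 50 kb of the most 5′ TSS only, a setting chosen after seeing the data. Nonreceptor genes with one numbered 6 inside the gene only, 5 with the 50% strongest peaks and 7 within 50 kb of the most 5′ TSS. The 70 distal peaks became 41 inside the gene only, 208 with the pseudoreplicated lists, 138 and 165 with the series-level thresholded and conservative lists, 30 with the 50% strongest peaks and 32 within 50 kb of the most 5′ TSS. Ptpn11 had no shared distal peak in the thresholded lists but 1 in replicate 1 alone, and Ptpn6 had no promoter peak shared at its most 5′ TSS only. All other counts for the class stayed within 1.5 times the reported ones. For the single genes Ptprc, Ptpn6 and Ptpn11, 16 counts moved further and 62 did not. The longer lists hold more intervals by construction, and peaks without counts give no error on a single call.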
